A study of Mus musculus with 2 samples.

Results

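The genes described here encode the enzymes that convert retinol (ROH) and retinaldehyde into each other. They were taken by name, as enzymes of this step and with earlier results of these data known, and are 10 of the 32285 genes listed in the files: the short-chain dehydrogenase/reductase genes Rdh5, Rdh10, Rdh11, Rdh12, Rdh13, Rdh14, Dhrs3 and Dhrs9, and the alcohol dehydrogenase genes Adh1 and Adh7. All 10 were detected, with 76 UMIs (unique molecular identifiers, each counting 1 captured transcript) for Dhrs9 at the low end and 17107 UMIs for Adh1 at the high end over all kept cells. Among the gated classes of sorted lung cells, Adh1 and Adh7 had their highest levels by far in stromal cells, Adh7 in the Dcn-rich subset of them. Rdh12 and Dhrs9 had their highest levels in immune cells, and among those in cells with neutrophil markers. Dhrs3 and Rdh10 were detected in each class and were highest in epithelial cells in the fit, a result that depended in part on how the epithelial sums were scaled. Rdh14 was higher in stromal cells than in epithelial or immune cells.

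Retinoid reaches cells as retinol bound to carrier proteins or in lipoproteins after a meal. Inside cells retinol is stored as retinyl ester and is oxidised in a pair of steps. The first leads reversibly to retinaldehyde and the next irreversibly to all-trans retinoic acid (ATRA). The reversible step is carried by membrane-bound short-chain enzymes, of which RDH10 works mainly as an oxidase and DHRS3 as a reductase, and by soluble alcohol dehydrogenases that oxidise many alcohols besides retinol. RDH11, RDH12, RDH13 and RDH14 prefer NADPH and in cells act mainly as reductases, RDH5 is best known from the retinal pigment epithelium, where it oxidises 11-cis retinol, and DHRS9 oxidises retinol and certain steroids.

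The samples were 2 libraries of lung cells from wild-type male C57BL/6 mice aged 3 months, sorted as living single cells for the ultraviolet-excited autofluorescence of retinoids (UV-positive cells). The libraries were made on separate occasions, belong to 1 condition, and the number of mice in each is not given in the sources used here, so that errors below measure the spread between these libraries, which may be technical. Barcodes needed 200 genes and no more than 10% of UMIs from mitochondrial genes (met by 9634 of 9669 in library 1 and 9988 of 10050 in library 2), and a cell was placed in a class when the summed UMIs of 3 marker genes reached 3 for that class alone. The marker genes were Col1a2, Mfap4 and Pdgfra for stromal cells, Cdh5, Pecam1 and Egfl7 for endothelial cells, Epcam, Cdh1 and Lamp3 for epithelial cells, and Ptprc, Laptm5 and Cd52 for immune cells. Stromal cells were called adventitial with at least 3 UMIs of Dcn and alveolar with 0. Libraries 1 and 2 held 7645 and 7438 stromal cells (adventitial 1017 and 998, alveolar 5805 and 5545), 56 and 360 endothelial cells, 930 and 101 epithelial cells, and 266 and 334 immune cells.

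The median depth of kept cells was 4480 UMIs in library 1 and 7577.5 in library 2, and 23 barcodes were present in both. Endothelial cells of library 1 held 119534 UMIs in all, the smallest sum, so that their values rest on few molecules. Markers outside the gates stood mainly in their own class. The 7 endothelial check genes summed to 16129 and 14003 CPM (counts per 1000000 of a group's summed UMIs) in endothelial cells and to 340 CPM or less in the other classes. The 10 stromal check genes summed to 13186 and 12176 CPM in stromal cells and to 694 CPM or less elsewhere. In epithelial cells 1 of them was at 428 and 381 CPM, which was 0.914 and 0.842 of its stromal level. The 8 epithelial check genes summed to 295720 and 244109 CPM in epithelial cells and to 636 CPM or less in the other classes. The 6 immune check genes summed to 8873 and 5095 CPM in immune cells and to 98.5 CPM or less elsewhere. The adventitial check list (Pi16, Dpt, Col14a1, Clec3b, Serpinf1 and Gsn) summed to 26756 and 17149 CPM in adventitial cells and to 22199 and 14141 CPM in alveolar cells. In library 1, 1 gene made up 23428 and 20357 CPM of these sums, whereas the lowest of the 6 genes was at 180 CPM in adventitial and 0.597 CPM in alveolar cells (46.5 and 0.309 CPM in library 2). The alveolar check list (Tcf21, Ces1d, Inmt, Npnt, Limch1 and Itga8) summed to 13458 and 13889 CPM in alveolar cells and to 8356 and 9199 CPM in adventitial cells.

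In the mouse genome (GRCm38, GENCODE vM21), Adh7 (chr3:138217760-138233382, plus strand) lies 27608 bp upstream of Adh1 (chr3:138260991-138290698, plus strand), and each overlaps an antisense gene. Rdh11 (chr12:79174337-79192293, minus strand) and Rdh12 (chr12:79208914-79222665, plus strand) are divergent neighbours 16620 bp apart. Rdh14 is on the same chromosome (chr12:10390772-10395562, plus strand), Dhrs3 is at chr4:144892827-144928209 (plus strand), Rdh10 at chr1:16105774-16133734 (plus strand), Dhrs9 at chr2:69380445-69404533 (plus strand) and Rdh13 at chr7:4424770-4445649 (minus strand). Rdh5 (chr10:128913593-128922888, minus strand) overlaps Bloc1s1 on the same strand, so that its counts are uncertain.

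The 250 bases before the RefSeq start (GRCm38.p6) are shown for the pair of genes highest in stromal cells and the pair highest in immune cells. Windows are chr3:138277335-138277584 for Adh1, chr3:138217523-138217772 for Adh7, chr12:79208663-79208912 for Rdh12 and chr2:69380212-69380461 for Dhrs9, each on the plus strand and written 5′ to 3′. Capitals mark matches on either strand to the TATA box (TATAAA), the CCAAT box (CCAAT), the GC box (GGGCGG), a nuclear receptor half-site (AGGTCA), a C/EBP type site (TTGCNNAA) and an ETS type site (GAGGAAG).
Adh1: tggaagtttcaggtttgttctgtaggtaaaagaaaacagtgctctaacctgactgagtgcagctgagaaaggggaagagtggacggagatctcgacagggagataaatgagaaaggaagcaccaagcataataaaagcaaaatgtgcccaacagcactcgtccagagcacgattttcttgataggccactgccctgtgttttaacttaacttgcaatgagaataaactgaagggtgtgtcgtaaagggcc
Adh7: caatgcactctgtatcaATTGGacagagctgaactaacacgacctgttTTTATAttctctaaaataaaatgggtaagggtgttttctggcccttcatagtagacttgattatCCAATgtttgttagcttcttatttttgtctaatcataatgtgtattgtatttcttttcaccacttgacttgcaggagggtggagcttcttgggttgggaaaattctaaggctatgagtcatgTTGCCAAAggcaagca
Rdh12: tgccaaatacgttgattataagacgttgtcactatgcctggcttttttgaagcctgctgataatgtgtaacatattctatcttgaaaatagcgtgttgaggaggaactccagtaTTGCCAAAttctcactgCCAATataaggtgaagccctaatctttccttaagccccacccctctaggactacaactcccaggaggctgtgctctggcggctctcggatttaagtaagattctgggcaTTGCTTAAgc
Dhrs9: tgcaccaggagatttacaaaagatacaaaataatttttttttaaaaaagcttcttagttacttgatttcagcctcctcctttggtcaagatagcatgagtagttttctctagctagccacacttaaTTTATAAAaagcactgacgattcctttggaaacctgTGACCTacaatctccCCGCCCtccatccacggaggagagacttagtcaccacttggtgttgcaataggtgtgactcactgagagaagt
The Adh1 window held none of the 6 motifs. It lies inside the GENCODE span of Adh1 given above, since the RefSeq start used here is downstream of the GENCODE one, so that it does not describe the other start. That of Adh7 held TATAAA on the opposite strand, CCAAT once on each strand and TTGCNNAA ending 9 bases before the start. The Rdh12 window held CCAAT and 2 matches to TTGCNNAA, and the Dhrs9 window held overlapping TATAAA matches on both strands, GGGCGG and AGGTCA. Among 32851 promoter windows of this length, 12.4% held TATAAA, 33.8% CCAAT, 32.7% GGGCGG, 14.02% AGGTCA, 9.56% TTGCNNAA and 10.6% GAGGAAG, so that each match is a description and no more. A promoter entry was matched for 8 of the 10 genes.

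**Figure D1:**
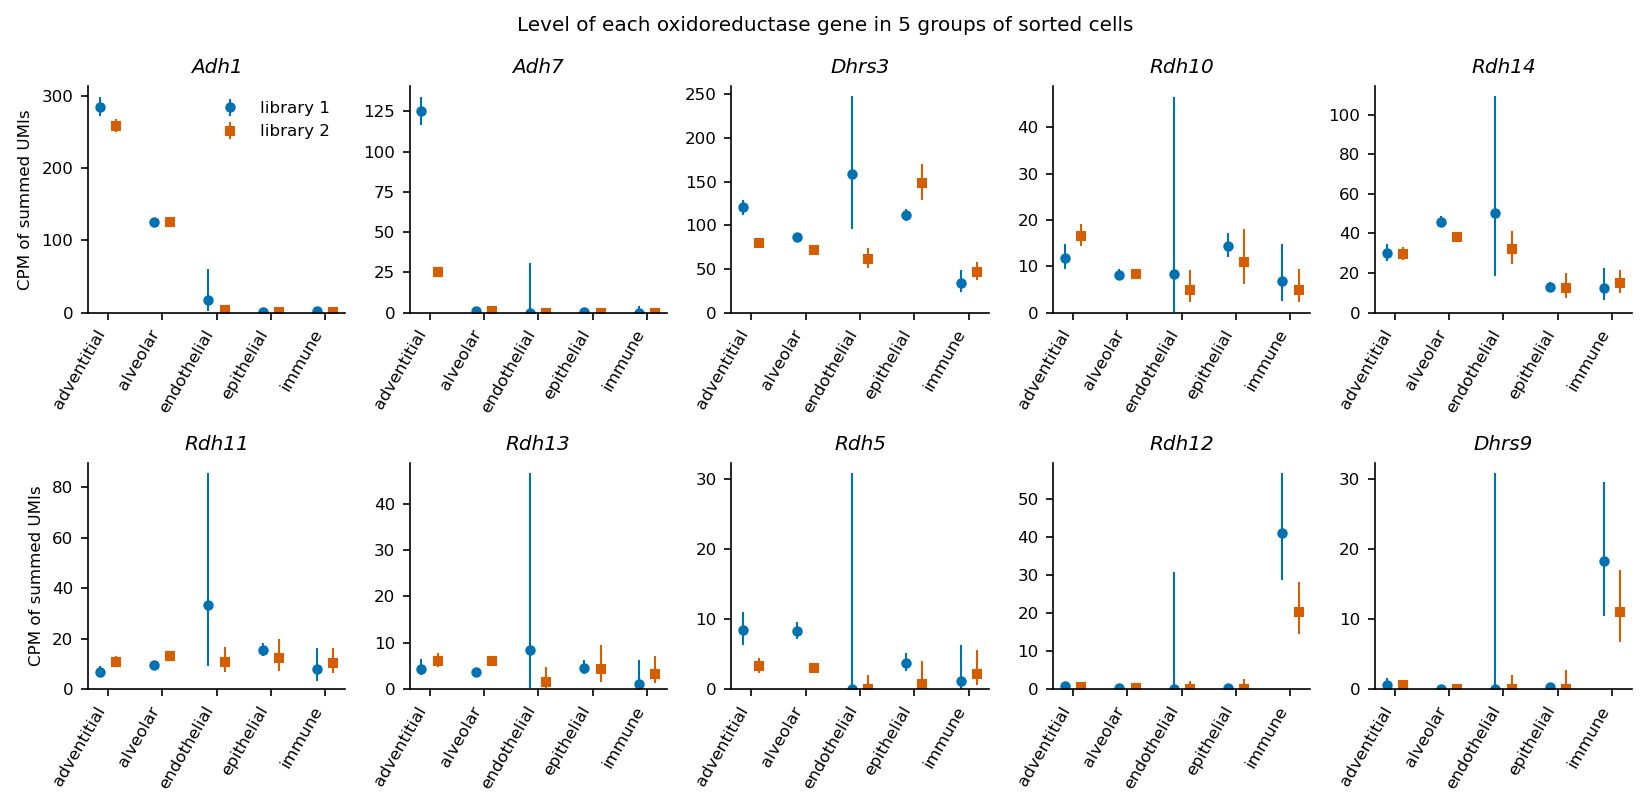
Level of each of the 10 genes (y axes, CPM of summed UMIs, each panel on its own scale from 0) in 5 groups of cells (x axes), with library 1 as circles, library 2 as squares and bars for 95% Poisson intervals. Adh1 and Adh7 stand in the stromal groups, Rdh12 and Dhrs9 in immune cells, and the bars are widest for the endothelial cells of library 1.

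Adh1, the class I alcohol dehydrogenase, was the most abundant of the 10 genes in stromal cells, with 162 CPM in library 1 and 161 CPM in library 2 (161.8 ± 0.86, SD, n = 2). Endothelial cells held 16.7 and 3.79 CPM from 2 and 7 UMIs, immune cells 2.28 and 1.10 CPM from 2 UMIs each, and epithelial cells 1.04 and 0.732 CPM from 9 and 1 UMIs. The stromal values lay far above those of each other class in both libraries. In the edgeR fit, Adh1 was higher in stromal than in endothelial cells by 5.18 ± 0.42 on the log2 scale (SE). It was higher than in epithelial cells by 6.84 ± 0.39 and than in immune cells by 6.45 ± 0.44. These differences are given as a description, since Adh1 entered the fit through its stromal counts alone. With library 1 alone the first of these was 3.63, from 2 endothelial UMIs.

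Beside these low values stand those of stromal check genes (Col1a1, Col3a1 and 8 others) in the same cells. Relative to stromal cells, Adh1 was at 0.00641 and 0.00454 in epithelial cells, where the median of the 10 check genes was 0.00242 and 0.00710. In immune cells the Adh1 ratio was 0.0140 and 0.00684 against a median of 0.00924 and 0.00922, and in endothelial cells 0.103 and 0.0235 against 0.0309 and 0.0251. In each of the 3 classes the Adh1 ratio was above the median of the check genes in library 1 and below it in library 2, and the part of free RNA in these values was not tested.

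Within the stroma, Adh1 was at 285 and 258 CPM in adventitial cells and at 125.8 and 125.0 CPM in alveolar cells, and the groups did not overlap. The fitted difference was 1.14 ± 0.19 on the log2 scale (adjusted p = 5.49e-04). It was no longer called by DESeq2 (adjusted p = 0.156) or without the library block (0.0928). Cells with 1 or 2 Dcn UMIs lay between, at 181 and 195 CPM, and cells with 10 or more Dcn UMIs reached 318 and 270 CPM. A Dcn threshold also selects deeper cells, with medians of 6034 and 10655.5 UMIs in adventitial cells against 3958 and 6545 in alveolar cells. After each cell was thinned to 2000 UMIs, 41.5% and 39.5% of adventitial cells had an Adh1 UMI against 20.9% and 19.6% of alveolar cells (71.98% and 88.0% against 34.0% and 48.1% before thinning). The thinning left out 17 and 0 adventitial cells and 735 and 41 alveolar cells. In thinned epithelial cells, which held 9 and 1 Adh1 UMIs before thinning, the share was 0.216% and 0%, the latter being 0 of 101 cells.

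Adh7, the class IV alcohol dehydrogenase known from stomach and other surface epithelia, was at 24.96 CPM in stromal cells of library 1 and at 5.89 CPM in library 2. It was not detected in endothelial or immune cells of either library, which over both libraries allows up to 1.52 and 1.12 CPM by the limit of 3 UMIs, and epithelial cells held 1 UMI in all. Set against these limits, Adh7 was at least 8.47-fold higher in stromal than in endothelial cells and at least 11.6-fold higher than in immune cells. Against epithelial cells the ratio was 129 with a counting interval of 23.2 to 5110.4. Adh7 entered the fit through its stromal counts alone, so that its calls against the other classes add nothing to these values, and the DESeq2 fit did not make them (adjusted p = 0.455, 0.302 and 0.320 against endothelial, immune and epithelial cells).

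Adventitial cells carried nearly all of it: 125.0 CPM in library 1 and 24.95 CPM in library 2 from 791 and 289 UMIs, against 1.24 and 0.722 CPM from 29 and 28 UMIs in alveolar cells. Both adventitial values lay above both alveolar values, although the libraries differed by a larger ratio in this gene than in any of the other 9 in these cells. The fitted difference was 5.96 ± 0.33 on the log2 scale, and it was 6.45 with library 1 alone and 4.81 with library 2 alone. It is given as a description, since Adh7 entered this fit through its adventitial counts alone. After thinning, 16.8% and 3.81% of adventitial cells had an Adh7 UMI against 0.178% and 0.0727% of alveolar cells. Cells just inside the Dcn threshold, with exactly 3 UMIs, were at 26.2 and 14.5 CPM, and those just outside it, with exactly 2, at 17.5 and 4.83 CPM.

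Adventitial cells with a UMI of Pi16, a marker of adventitial fibroblasts, numbered 227 of 1017 in library 1 and 79 of 998 in library 2. In them Adh7 was at 331 and 133 CPM, and in the Pi16-negative adventitial cells at 65.2 and 14.7 CPM. Both sets thus had lower Adh7 in library 2, which also had fewer cells with Pi16. Adh1 was at 382 and 385 CPM with Pi16 and at 257 and 246 CPM without it, close between the libraries. These cells were compared by their values only.

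**Figure D2:**
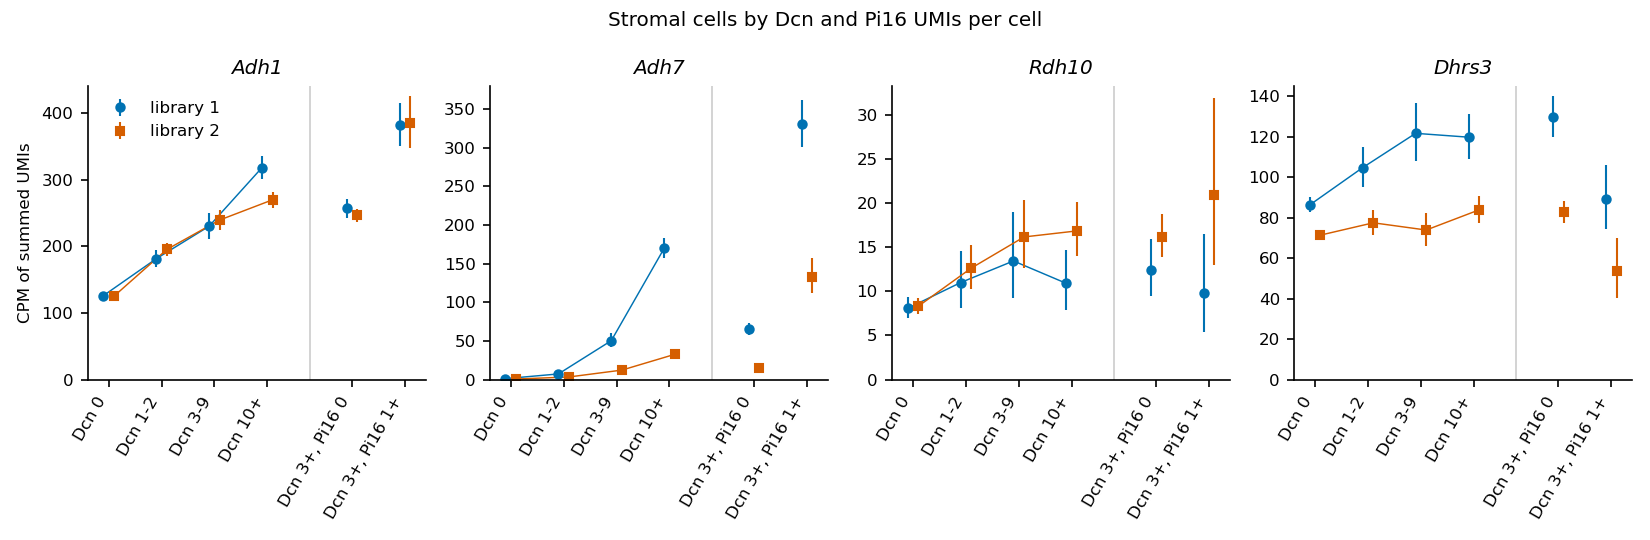
Adh1, Adh7, Rdh10 and Dhrs3 (y axes, CPM of summed UMIs from 0) in stromal cells by Dcn UMIs per cell and, right of the line, in adventitial cells by Pi16 UMIs (x axes), with circles for library 1, squares for library 2 and bars for 95% Poisson intervals. Adh1 and Adh7 rise from left to right over the Dcn bands in both libraries, with Adh7 reaching 170 and 32.7 CPM. Rdh10 rises over all bands in library 2 only, from 8.30 to 16.8 CPM, and Dhrs3 varies less.

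Rdh10, the main retinol oxidase of the embryo, was a low transcript in each class. Stromal cells held 9.14 and 10.5 CPM, epithelial cells 14.4 and 10.99 CPM, endothelial cells 8.37 and 4.87 CPM from 1 and 9 UMIs, and immune cells 6.84 and 4.96 CPM from 6 and 9 UMIs. Epithelial values were above stromal values in both libraries and lay close to them in library 2. In the fit, which rescales each sum by its TMM factor (0.714 and 0.796 for the epithelial sums, 1.06 and 1.15 for the stromal ones), Rdh10 was lower in stromal than in epithelial cells by -0.96 ± 0.36 on the log2 scale (adjusted p = 0.0300). Endothelial cells were lower than epithelial cells by -2.01 ± 0.59 (adjusted p = 0.00781), and epithelial cells were higher than immune cells by 1.48 ± 0.49 (adjusted p = 0.0156).

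None of these 3 calls held when sums were scaled by their UMI totals alone (log2 differences of -0.40, -1.29 and 1.19 with adjusted p = 0.340, 0.0776 and 0.0512) or in cells with no UMI of the other gates (adjusted p = 0.199, 0.0836 and 0.235), and the first was also lost without the low-count filter (0.0878) and without the library block (0.0543). The 8 epithelial check genes, most of them surfactant genes, took 295720 and 244109 CPM of the epithelial sums, which lowers the CPM of every other epithelial gene. Within the stroma, Rdh10 was at 11.9 and 16.6 CPM in adventitial and at 8.07 and 8.30 CPM in alveolar cells, without overlap, and higher in adventitial cells by 0.83 ± 0.24 on the log2 scale (adjusted p = 0.0349). That call was lost with DESeq2 (adjusted p = 0.128), without the library block (0.387), with a gate of 5 UMIs (0.0513) and with adventitial cells set at 10 Dcn UMIs (0.0797).

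Dhrs3, the retinaldehyde reductase that retinoic acid induces, was abundant in each class. Levels were 95.1 and 74.0 CPM in stromal, 159 and 61.7 CPM in endothelial (19 and 114 UMIs), 111 and 149 CPM in epithelial, and 34.2 and 46.9 CPM in immune cells. Epithelial values exceeded stromal and immune values in both libraries, whereas the endothelial values spanned those of stromal and epithelial cells. In the fit Dhrs3 was lower in stromal than in epithelial cells by -1.16 ± 0.26 on the log2 scale (adjusted p = 4.80e-04) and lower in endothelial than in epithelial cells by -1.39 ± 0.31 (adjusted p = 8.61e-04). Under scaling by UMI totals these were -0.61 and -0.64 and were not called (adjusted p = 0.0614 and 0.126). Dhrs3 was higher in epithelial than in immune cells by 1.90 ± 0.29 (adjusted p = 5.89e-06), and this held in each alternative with a test. The stromal excess over immune cells of 0.74 ± 0.28 (adjusted p = 0.0338) was lost with RLE size factors (0.61, adjusted p = 0.0930), with DESeq2 (adjusted p = 0.194), without the block (0.119) and with a gate of 5 UMIs (0.154).

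Dhrs3 varied inside the classes too. Among endothelial cells, those with aerocyte markers (Car4, Ednrb and Apln) held 487 and 171 CPM in 11 and 31 cells, and those with general capillary markers (Gpihbp1, Kit and Aplnr) 31.8 and 37.7 CPM in 30 and 198 cells. The aerocyte values lay above the capillary ones in both libraries. Without the cells with aerocyte markers, endothelial Dhrs3 was at 45.1 and 51.9 CPM. Among immune cells, Dhrs3 was at 153 and 87.5 CPM in cells with C1q genes (34 and 11 cells) and at 246 CPM in the 10 alveolar macrophage-marker cells of library 2, against 0 and 15.5 CPM in cells with neutrophil markers.

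Each group had more Dhrs3 than Rdh10 UMIs, from 4.83 to 19.0 per Rdh10 UMI over the groups and libraries. A UMI counts 1 molecule whatever its length, so that no length correction applies, but capture may differ between genes. Rdh10 made up 8.77% and 12.5% of the pair's UMIs in stromal cells, with exact 95% binomial intervals of 7.86 to 9.75% and 11.6 to 13.4% that cover counting error only. The share was 8.95% and 17.1% in adventitial, 8.54% and 10.4% in alveolar, 11.5% and 6.88% in epithelial, 5% and 7.32% in endothelial, and 16.7% and 9.57% in immune cells. The libraries ordered these groups differently, so that no group had a share apart from the others in both.

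Rdh14, a broadly expressed NADPH-dependent retinaldehyde reductase, was at 41.9 and 35.6 CPM in stromal and at 50.2 and 31.9 CPM in endothelial cells, against 12.9 and 12.5 CPM in epithelial and 12.5 and 14.9 CPM in immune cells. The first pair of classes lay above the second pair in both libraries. Stromal cells were higher than epithelial cells by 1.07 ± 0.27 on the log2 scale (adjusted p = 0.00177) and than immune cells by 1.17 ± 0.31 (adjusted p = 0.00228), and both calls held in each alternative with a test. The endothelial differences from epithelial and immune cells were 0.78 ± 0.36 (adjusted p = 0.0875) and 0.88 ± 0.37 (adjusted p = 0.0676), and they were past the threshold only with UMI totals (adjusted p = 0.00166 and 0.00703). Adventitial cells held 30.2 and 29.6 CPM and alveolar cells 45.7 and 38.2 CPM, a fitted difference of -0.45 ± 0.18 (adjusted p = 0.150), called only in the fit of the 4 stromal sums alone (adjusted p = 0.0209).

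Rdh11, a reductase of the endoplasmic reticulum, was at 9.05 and 12.4 CPM in stromal, 15.5 and 12.5 CPM in epithelial, 33.5 and 10.8 CPM in endothelial (4 and 20 UMIs) and 7.98 and 10.5 CPM in immune cells. Ordered by mean over the 5 groups, each overlapped its neighbour. The fit gave a stromal value below the epithelial one by -0.996 ± 0.36 on the log2 scale (adjusted p = 0.0237), which was lost without the low-count filter (adjusted p = 0.0541), without the block (0.0675), in cells with no UMI of the other gates (0.0531) and with UMI totals (0.304). Rdh13, the mitochondrial member, was at 3.69 and 5.99 CPM in stromal and at 4.62 and 4.39 CPM in epithelial cells, and none of its 7 comparisons passed the threshold. Rdh5 was at 8.03 and 2.97 CPM in stromal, 3.70 and 0.732 CPM in epithelial and 1.14 and 2.21 CPM in immune cells, with 0 UMIs in endothelial cells. Its stromal level was at least 3.17-fold above the endothelial limit of 1.52 CPM. Rdh5 did not pass the low-count filter over the 4 classes, and adventitial and alveolar cells differed by 0.10 ± 0.32 (adjusted p = 0.929).

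Rdh12, the photoreceptor reductase of vitamin A, was at 41.0 and 20.4 CPM in immune cells from 36 and 37 UMIs. Stromal cells held 0.439 and 0.239 CPM from 15 and 14 UMIs, epithelial cells 3 and 0 UMIs, and endothelial cells none. Immune values lay far above the others in both libraries. The fitted stromal minus immune difference was -6.72 ± 0.61 on the log2 scale, given as a description, since Rdh12 entered the fit through its immune counts alone. Immune cells were at least 17.8-fold above the endothelial limit and 90.6-fold above epithelial cells, with a counting interval of 29.8 to 449. Of the 155 Rdh12 UMIs in all kept cells, 8 and 41 were in cells that passed several gates. The stromal level was 0.0107 and 0.0117 of the immune level, where 6 immune check genes had medians of 0.000771 and 0.00112.

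Dhrs9 was the rarest of the 10 genes, with 18.2 and 11.03 CPM in immune cells from 16 and 20 UMIs. Stromal cells held 4 and 7 UMIs, epithelial cells 2 and 0 and endothelial cells none. The fitted stromal minus immune difference was -7.03 ± 0.84 on the log2 scale, a description for the same reason as in Rdh12. Immune cells were at least 8.78-fold above the endothelial limit and 67.0-fold above epithelial cells, with a counting interval of 17.3 to 575. Of the 76 Dhrs9 UMIs in all kept cells, 2 and 25 were in cells that passed several gates. Of the 11 stromal UMIs, 10 were in adventitial cells (4 and 6 UMIs) and 1 in an alveolar cell. Their ratio of 34.7 has a counting interval of 4.94 to 1508, and its adjusted p of 0.0190 rests on these 11 molecules and became 0.0531 without the library block.

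Few immune cells held a large part of both genes' immune UMIs. Cells with at least 10 UMIs of the neutrophil genes S100a8, S100a9 and Retnlg and no other immune marker set numbered 54 of 266 in library 1 and 27 of 334 in library 2. They held 31 of 36 and 22 of 37 Rdh12 UMIs, at 384 and 340 CPM, and 13 of 16 and 10 of 20 Dhrs9 UMIs, at 161 and 155 CPM. The libraries lay close to each other in these cells, and each value stood above that of every other immune marker set of at least 10 cells. At a mean of 1496 and 2395 UMIs per cell, 35.2% and 51.9% of them had an Rdh12 UMI, against 0.196% and 0.188% of stromal cells at medians of 4297 and 7083.5 UMIs. The remaining immune cells were at 6.28 and 8.58 CPM of Rdh12 and at 3.77 and 5.72 CPM of Dhrs9. Cells with B cell markers held 48.0 and 23.8 CPM of Rdh12 from 2 and 3 UMIs. A pooled level cannot tell apart more expressing cells from more transcript in each.

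**Figure D3:**
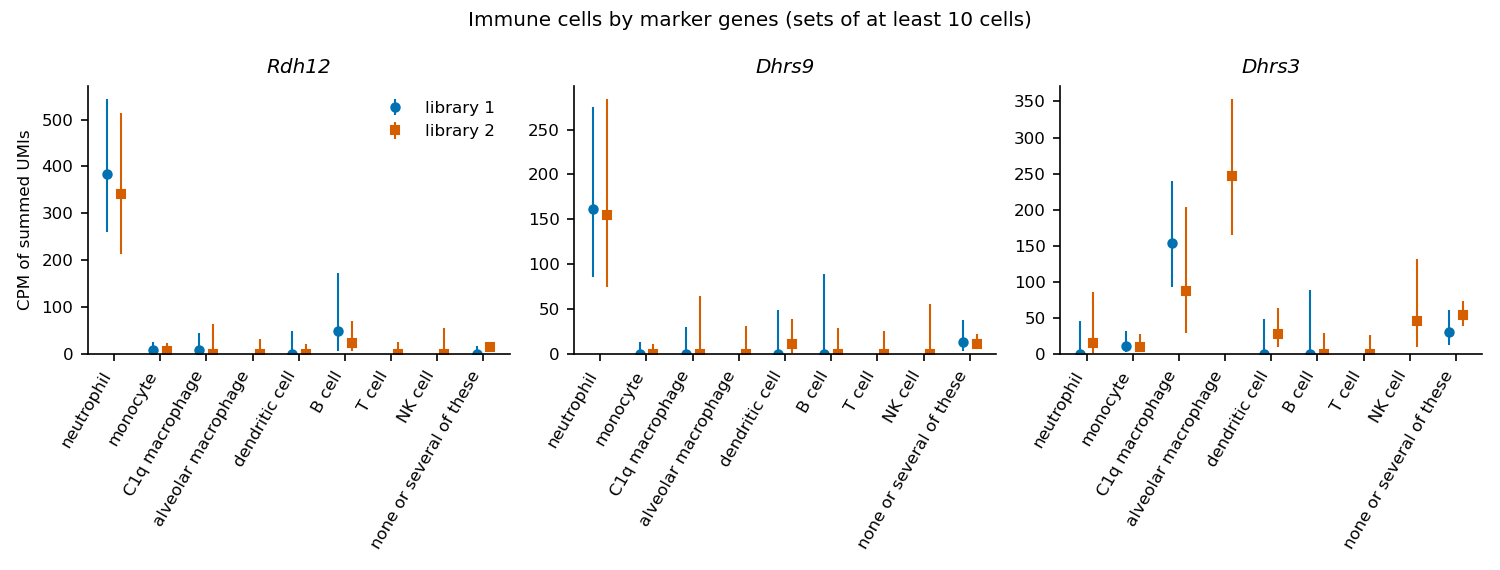
Rdh12, Dhrs9 and Dhrs3 (y axes, CPM of summed UMIs from 0) in immune cells split by marker genes (x axes, sets of at least 10 cells), with circles for library 1, squares for library 2 and bars for 95% Poisson intervals. Rdh12 and Dhrs9 stand in the cells with neutrophil markers, and Dhrs3 in those with macrophage markers.

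Over the 4 classes, 9 of the 10 genes passed the low-count filter, and Adh1, Adh7, Rdh12 and Dhrs9 passed it only through the class where they were high. Of those tested, 2 were called between stromal and endothelial cells (Adh1 and Adh7, both higher in stroma), in a comparison that called 32.1% of 11832 genes. Between stromal and epithelial cells 6 were called, 3 higher in stroma (Adh1, Adh7, Rdh14) and 3 lower (Dhrs3, Rdh10, Rdh11), where 46.0% of all genes were called. Between stromal and immune cells 6 were called, 4 higher in stroma (Adh1, Adh7, Dhrs3, Rdh14) and 2 lower (Rdh12, Dhrs9), against 50.8% of all genes. With so many genes called between classes, the number of calls among the 10 genes is read as no result in itself.

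Endothelial and epithelial cells differed in Dhrs3 and Rdh10, both lower in endothelial cells (39.7% of all genes called). Endothelial and immune cells differed in Rdh12 and Dhrs9 (37.1%). Epithelial and immune cells differed in 4, with Dhrs3 and Rdh10 higher and Rdh12 and Dhrs9 lower in epithelial cells (47.4%). The Rdh12 and Dhrs9 calls are descriptions, since both genes passed the filter through their immune counts alone. Between adventitial and alveolar cells, where each of the 10 genes passed the filter, Adh1, Adh7, Dhrs9 and Rdh10 were higher in adventitial cells, against 8.71% of 13326 genes called. Adh7 passed the filter there through its adventitial counts alone.

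The share of calls in each direction moved with the scaling. Of the genes called between stromal and epithelial cells, 52.5% were higher in stroma with TMM factors and 75.4% with UMI totals. The same share for the first-named class went from 53.3% to 63.7% for stromal against immune, from 50.4% to 77.3% for endothelial against epithelial, from 51.0% to 68.8% for endothelial against immune and from 50.7% to 39.8% for epithelial against immune cells. The median log2 difference of all genes was 0.65 between stromal and epithelial cells and 0.72 between endothelial and epithelial cells with UMI totals, and 0.09 and 0.02 with TMM factors. None of the 26 calls among the 10 genes changed its direction under any setting tried.

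**Figure D4:**
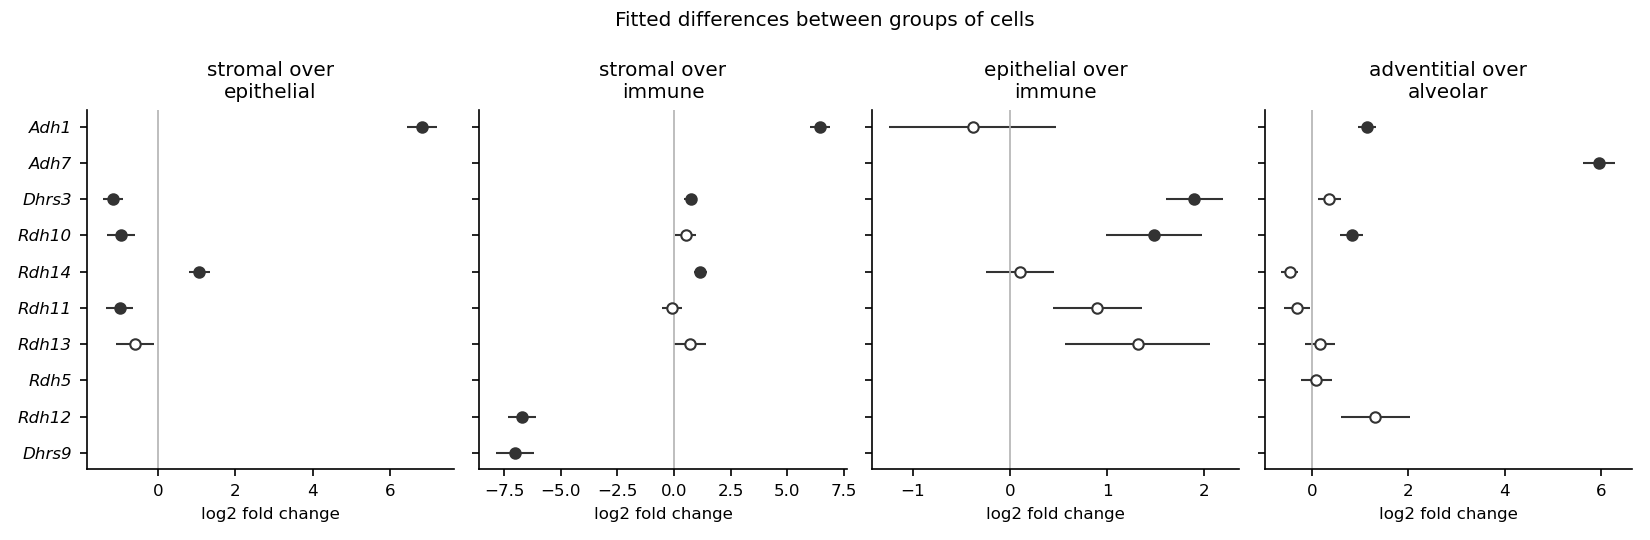
Fitted log2 fold changes (x axes) with their standard errors as bars for 4 of the 7 comparisons, 1 row per gene, with filled points for adjusted p under 0.05 and a line at 0. Genes with 3 UMIs or fewer in either group, or not tested, have no point. Adh1 stands at 6.84 and 6.45 against epithelial and immune cells, and Adh7 at 5.96 between adventitial and alveolar cells.

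The 10 genes together made up 594 and 431 CPM in adventitial cells, 289 and 266 CPM in alveolar cells, 276 and 115 CPM in endothelial cells, 164 and 190 CPM in epithelial cells, and 125 and 115 CPM in immune cells. Their mix differed by group. Adh1 was 48.0% and 59.9% of these UMIs in adventitial cells and 43.5% and 47.0% in alveolar cells, and at most 6.06% elsewhere. Dhrs3 was 67.7% and 78.1% in epithelial and 57.6% and 53.8% in endothelial cells. In immune cells Rdh12 was 32.7% and 17.7%, Dhrs3 27.3% and 40.7%, and Dhrs9 14.5% and 9.57%.

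**Figure D5:**
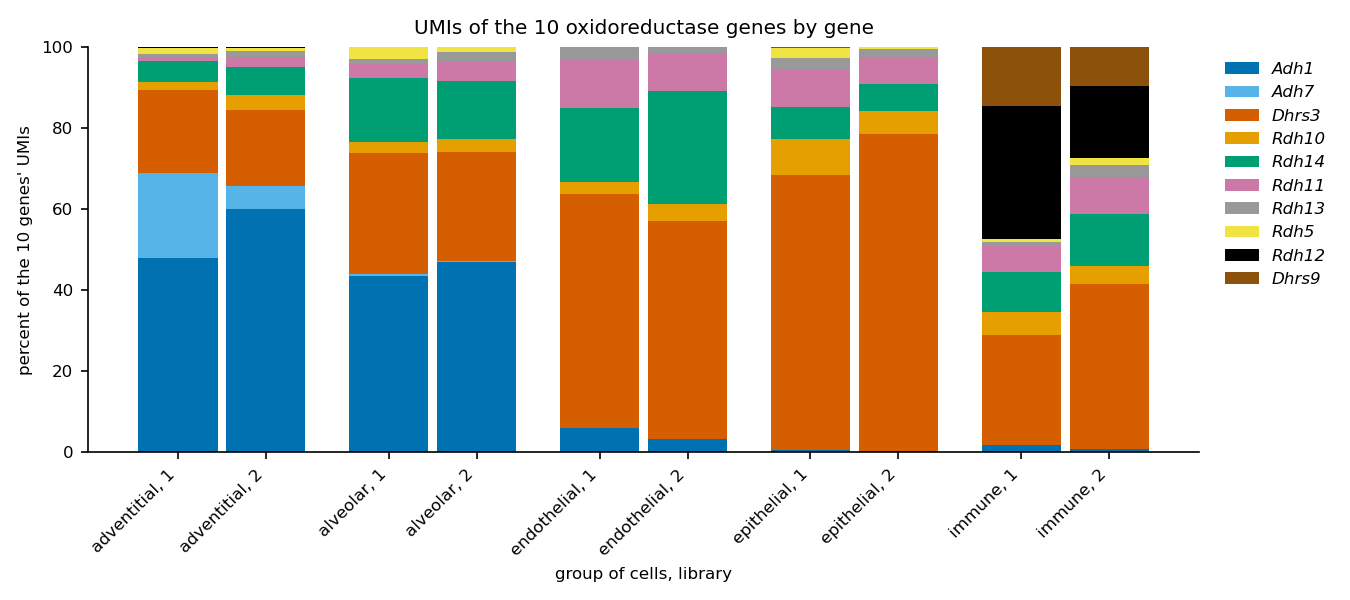
Share of the 10 genes' summed UMIs (y axis, percent) taken by each gene, as stacked bars for 5 groups of cells in each library (x axis). Adh1 fills the largest part of the stromal bars, Dhrs3 that of the endothelial and epithelial bars, and Rdh12 and Dhrs9 are visible in the immune bars only.

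Of 14 other retinoid genes for binding, uptake, esterification and breakdown, 6 were tested over the 4 classes and 8 over the 5 groups. Stromal cells had 4 higher and 1 lower than endothelial cells (median log2 difference of those tested 3.74, against 0.12 over all genes, of which 32.1% were called). They had 5 higher than epithelial cells (5.33 against 0.09, with 46.0% of all genes called), and 4 higher and 1 lower than immune cells (6.43 against 0.13, with 50.8% called). Aldh1a1, which oxidises retinaldehyde to ATRA, was at 716 and 1657 CPM in stromal cells, and Lrat, which makes retinyl ester, at 319 and 141 CPM. Rbp4, the plasma carrier of retinol, was at 769 and 304 CPM in adventitial and at 51.5 and 42.2 CPM in alveolar cells (3.44 ± 0.27 on the log2 scale, adjusted p = 1.55e-07). The retinoic acid hydroxylase Cyp26b1 was at 1.93 and 1.30 CPM in stromal cells and at 217.5 and 63.3 CPM in endothelial cells, the latter from 26 and 117 UMIs. The fitted difference of -5.89 ± 0.44 is a description, since Cyp26b1 entered the fit through its endothelial counts alone. Between adventitial and alveolar cells 3 of 8 were higher (Rbp4, Cyp26b1, Lrat) and 1 lower. The median was 0.48 against -0.03 over all genes, of which 8.71% were called. The lower gene passed the filter there through its alveolar counts alone, so that its call is a description.

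Of 25 other alcohol dehydrogenase and short-chain genes, 7 were tested over the 4 classes and 8 over the 5 groups, and Dhrsx was not among the listed genes. Stromal cells had 2 higher (Dhrs4 and Hsd17b11) and 2 lower than endothelial cells, and 1 lower than epithelial cells. They had 2 higher (Dhrs4 and Hsd17b11) than immune cells. Of all genes, 32.1%, 46.0% and 50.8% were called in these comparisons, in that order. Of the 2 lower than endothelial cells, 1 passed the filter only through its endothelial counts, so that its call is a description. None of the 8 was called between adventitial and alveolar cells in the edgeR fit, nor had any an unadjusted p under 0.05, against 8.71% of all genes called, with a median of -0.10 against -0.03. The medians against endothelial, epithelial and immune cells were -0.24, -0.02 and 0.32, against 0.12, 0.09 and 0.13 over all genes. Dhrs7, Hsd17b11 and Adh5, the formaldehyde-clearing class III enzyme, were the most abundant, at 89.4 and 93.4, 86.5 and 120, and 91.8 and 68.6 CPM in stromal cells.

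The pattern of the 6 genes whose mean reached 20 CPM in 1 of the 5 groups was compared with 5927 genes by Pearson's r of log2(CPM + 1), centred within each library, over the 10 sums. The sums share libraries and depth, so that r is a description. The likest genes were Col1a1, Sfrp1 and Adamts2 for Adh1 (r = 0.994, 0.994 and 0.994), and Ahnak2, Ildr2 and Dcn for Adh7 (0.972, 0.9498 and 0.941), where Dcn itself defined the adventitial and alveolar groups. For Rdh12 they were Adap1, C1qc and Tyrobp (0.998 each), of which Tyrobp and C1qc are genes of myeloid cells. The sums pool all immune cells of a library, so that r cannot tell kinds of immune cells apart. For Rdh14 they were Zfp639, Ndufab1 and Tm2d1 (0.992, 0.990 and 0.990), for Dhrs3 Sdhc, Pccb and Mecom (0.951, 0.947 and 0.938) and for Rdh11 Arid4b, Tra2a and Rsf1 (0.943, 0.937 and 0.915). Rdh11 reached a mean of 20 CPM only in endothelial cells, at 33.5 and 10.8 CPM from 4 and 20 UMIs. Its likest genes were also highest in the endothelial cells of library 1, the smallest sum.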

How the data were processed

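The deposited files hold UMI counts per gene and cell, which per the labels the authors made as filtered matrices with Cell Ranger 5.0.1 and mm10. Counts were used as deposited. Cells were gated as described in the report, with no doublet caller: 420 and 1640 cells (medians 10331 and 17378.5 UMIs) passed several gates and 317 and 115 none, and both sets stayed out of every comparison. UMIs were summed per library and group and tested with edgeR 4.0.16 (quasi-likelihood F test, two-sided, TMM factors, filterByExpr, library as a block, R 4.3.3), with Benjamini-Hochberg adjustment over all genes tested and a threshold of 0.05. All 4 classes shared 1 fit, and adventitial, alveolar, endothelial, epithelial and immune cells another. Standard errors were derived from the F statistics. The fitting code was tested on simulated data. Levels are CPM of the sums without TMM factors. Poisson and exact binomial intervals (95%) and the limit of 3 UMIs over both libraries cover counting error only. Sequences are from RefSeq, positions from GENCODE vM21, and the annotation release used for counting is not given in the sources used here. Alternatives were RLE factors, UMI totals, no filter, DESeq2 1.42.0, no block, each library alone, stricter gates and mitochondrial limits, removal of the 5% deepest cells, and cells thinned to 2000 UMIs. The 10 genes are named whatever their values, those of the 2 further lists by the highest CPM, up to 6 each, and the likest genes by r. The values of 1 listed gene are not reported here. The members and lists were chosen with earlier results of these data known.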

Additional observations from a re-analysis of the deposited data

Results flagged for a closer look

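Cells that passed no gate entered no comparison (317 in library 1 and 115 in library 2, at medians of 997 and 1279 UMIs), yet 3 of the 10 genes had more than 3 UMIs there in both libraries. Adh1 was at 74.0 and 23.3 CPM from 33 and 5 UMIs, below its stromal level of 162 and 161 CPM. Dhrs3 was at 53.9 and 18.6 CPM from 24 and 4 UMIs. Rdh14 was at 42.6 and 46.5 CPM from 19 and 10 UMIs, close to its stromal level of 41.9 and 35.6 CPM. Stromal check genes summed to 10478 and 3606 CPM in these cells against 13186 and 12176 CPM in stromal cells, and their part in the values was not tested.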

How the results depend on the processing

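Of 26 calls among the 10 genes, 13 held in each alternative with a test, the other 13 were lost in at least 1, and all 26 had the same direction in each library alone. Those that held were Rdh14 (stromal over epithelial and immune cells), Dhrs3 (epithelial over immune cells), and calls of Adh1, Adh7, Rdh12 and Dhrs9. The calls of these last genes add nothing to their levels, since each passed the low-count filter only through the group where it was high. Of the gene-level results, 638 stayed on their side of the threshold or within 1 SE, 28 lost and 6 gained significance, 38 moved with 1 library, and no called value changed sign, while some values that were not called did under other settings or with 1 library. The number of the 10 genes called fell from 2 to 1 between stromal and endothelial cells with DESeq2 and in cells with no UMI of the other gates. All genes called went from 3798 to 3818 and to 3287. Between stromal and epithelial cells the number of the 10 fell from 6 to 3 in those cells and with UMI totals, an alternative chosen after seeing the data. All genes called went from 5443 to 4509 and to 6891. Between endothelial and epithelial cells the number of the 10 fell from 2 to 1 in those cells, which lowers the number of cells. All genes called fell from 4703 to 3851. Between endothelial and immune cells the number of the 10 rose from 2 to 4 with UMI totals, and all genes called from 4392 to 5171. Between adventitial and alveolar cells the number of the 10 fell from 4 to 2 with DESeq2 and to 1 without the library block. All genes called went from 1161 to 617 and to 254, and to 2773 in the fit of the 4 stromal sums alone. Beyond these fits, the cause was not tested. Shares of cells with a UMI moved by more than the spread between libraries in 41 of 60 cases after thinning, which lowers them by construction. Each library alone gives values with no test. Depth limits the endothelial cells of library 1 most, where 3 UMIs make 25.1 CPM.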

Other observations

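Cells that passed several gates had all 10 genes. Adh1 was at 70.3 and 58.2 CPM, Dhrs3 at 89.4 and 76.9 CPM, Rdh14 at 23.7 and 26.6 CPM, Rdh12 at 1.80 and 1.37 CPM, Adh7 at 4.06 and 0.701 CPM and Dhrs9 at 0.451 and 0.834 CPM. Each of the Adh1 and Adh7 values lay between those of stromal cells and those of the other classes, and each of the Rdh12 and Dhrs9 values between those of immune cells and those of the other classes. Whether such cells are mixed droplets was not tested.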
